A study of Mus musculus with 38 samples.

Results

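The response of aged muscle to injury was described from 9 of the 38 libraries of the study. Sample titles that name old control mice and the leg gave 3 libraries of injured gastrocnemius and 6 of uninjured contralateral gastrocnemius. The gastrocnemius is a mixed calf muscle made up mainly of fast fibres. Control mice were taken to be the vehicle-treated mice of the study's methods. Both groups came from male wild-type C57BL/6JRj mice aged 23 to 25 months that received 1% sodium carboxymethyl cellulose, the vehicle of the study, by oral gavage. Cardiotoxin, a snake venom peptide that destroys muscle fibres, was injected into 1 leg in a volume of 50 µL at 20 µM, and both legs were collected 5 days later. Contralateral muscle was thus taken from mice that carried an injury in the other leg, and whatever the injury does to the whole animal was shared by both groups. The 3 injured libraries had their contralateral leg among the 6, and the other 3 contralateral libraries came from mice without an injured library. Each library was 1 leg of 1 mouse, so the spread within a group is a spread between mice. The study asked whether nicotinamide and pyridoxine given together (NAM/PN) support repair of young and aged muscle, and the aged vehicle response reported here is the reference against which that question is set. For comparison, 11 libraries of young vehicle mice (12 to 13 weeks of age, 5 injured and 6 contralateral) and 10 of aged NAM/PN mice (200 mg/kg and 4 mg/kg, 4 injured and 6 contralateral) were used.

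Skeletal muscle repairs itself through muscle stem cells, which lie against the fibre, express the transcription factor Pax7 and are quiescent in resting tissue. After fibres die, these cells divide, switch on Myod1 and then Myog, leave the cell cycle, fuse and build new fibres that first use embryonic isoforms of the contractile proteins. Macrophages clear debris and fibro-adipogenic progenitors lay down matrix during the same days, and in old muscle this sequence is known to be delayed.

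The 9 libraries held 4360893 to 7507191 counts. Between 14792 and 15326 genes were counted in an injured library and between 13352 and 14449 in a contralateral one, a difference of 1327 genes (exact two-sided permutation test, p = 0.0238, against a smallest possible p of 0.0119 with 84 divisions of the libraries). That test ignored that 3 mice gave both legs. Within these mice the injured leg held 14944, 14792 and 15326 genes against 13389, 13532 and 13380. The counts of genes were not adjusted for depth. Muscle identity was plain in every library, with the fast myosin heavy chain gene Myh4 at no less than 14221 CPM (counts relative to library size, scaled by TMM). A pair of contralateral libraries stood apart from the other 4. Contralateral replicate 3 held 248.8 CPM of Myh3 and 64.2 CPM of Mymk, both genes of newly formed muscle, where replicates 1, 2, 4 and 5 held 2.23 to 17.7 CPM and 0.516 to 2.65 CPM. Contralateral replicate 6 held 28.8 CPM of the macrophage gene Adgre1 against 0.529 to 1.55 CPM in those 4 libraries, and 934 CPM of the acute phase gene Saa3 against at most 0.504 CPM. Neither came from the 3 mice with both legs sequenced. Every list below was therefore also counted without contralateral replicates 3 and 6, a choice made after the data were seen, and with the mouse as a block, in which the difference rests on the 3 mice with both legs.

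Injury changed a large part of the transcriptome of aged muscle at day 5. Of 12610 genes tested, 4836 (38.4%) passed an adjusted p of 0.05 in edgeR's quasi-likelihood test, of which 2627 (20.8%) were higher and 2209 (17.5%) lower in injured muscle, and 5908 (46.9%) had an unadjusted p under 0.05. The 3 injured libraries lay entirely above or below the 6 contralateral ones for 3691 genes (29.3%). Increases were larger than decreases, with 895 genes (7.1%) higher by at least 2 on the log2 scale and 78 (0.619%) lower by as much. These shares are the background for every list below. With the mouse as a replicate block 4045 genes were called, 2357 of them higher, and with only the 3 mice that gave both legs 2118 were called, 1445 of them higher. Because the measurement was made on whole muscle, fewer cells of a type and less RNA per cell cannot be told apart.

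The 10 increases with the smallest p-values included 5 genes of chromosome X (Klhl13, Armcx2, Maged1, Clcn5 and Tmem35a), against 397 of the 12610 genes tested (3.15%) and 115 of the 2627 called higher (4.38%), a feature noticed after the values were seen. Another, Cdkn1c, is imprinted and is described with the imprinted genes below. Klhl13, an adaptor of a ubiquitin ligase that acts in cell division, lay between 3.78 and 7.52 CPM (median 5.88) in contralateral muscle and at 37.1, 39.8 and 37.6 CPM in the 3 injured libraries. Its libraries did not overlap, and the same was true of Hes6, a relative of the Hairy repressors that promotes muscle differentiation, which was measured at 78.1, 74.8 and 92.8 CPM after injury and at 12.7 to 21.99 CPM (median 16.4) in the contralateral leg and rose by 2.29 (SE 0.21, adjusted p = 5.01e-09). Armcx2 and Maged1 rose by 2.898 (SE 0.28, adjusted p = 1.11e-08) and 2.31 (SE 0.23, adjusted p = 2.77e-08). Dap, linked to programmed cell death, and Tcaf1, a partner of a TRP channel, rose by 2.32 and 2.62, and the chloride transporter Clcn5 by 2.901. Hmga2, a chromatin protein of embryonic and proliferating cells that favours myoblast growth, was at 0 CPM in 4 contralateral libraries, reached 0.327 CPM in the other two of that group, and measured 5.56, 7.17 and 9.88 CPM in injured replicates 1 to 3. Tmem35a, a chaperone of nicotinic acetylcholine receptors, measured 8.24, 19.7 and 23.7 CPM in injured replicates 1 to 3 and 0 to 1.795 CPM (median 0.579) in contralateral muscle.

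The decreases with the smallest p-values were smaller in size. Efcab2, which encodes a calcium-binding EF-hand protein, lay between 40.6 and 84.1 CPM (median 51.1) in contralateral muscle and at 17.7, 13.3 and 15.98 CPM in the 3 injured libraries, a fall without overlap (-1.83 (SE 0.22, adjusted p = 2.7e-07)). Nexn, a Z-disc protein, fell by 1.24 (SE 0.17, adjusted p = 1.93e-06), and Pink1, the kinase that marks damaged mitochondria for removal, fell by 1.53 (SE 0.23, adjusted p = 4.16e-06). Egflam, which encodes the matrix protein pikachurin, was measured at 9.14, 5.001 and 8.99 CPM after injury and at 25.1 to 50.96 CPM (median 33.2) in the contralateral leg and was among both the smallest p-values and the largest falls (-2.15 (SE 0.31, adjusted p = 3.59e-06)). The phosphatase Ptp4a3 (-1.78), the Myc antagonist Mxi1 (-1.51), Zbtb38 (-1.05), the complex I assembly factor Tmem126b (-1.07), the mitotic kinase Nek7 (-1.15) and Lrrc14b (-1.602) completed this group of 10, each lower in every injured library than in every contralateral one. Larger falls were those of Pld5 (-2.52), the histone gene Hist1h4i (-2.28), the kinesin Kif1c (-2.25), 1700001O22Rik (-2.22) and the phosphatase inhibitor Ppp1r1a (-2.19), all without overlap. Arrdc2 (-2.78), Chac1, which degrades glutathione (-2.33), and Smtnl1 (-2.13) fell with overlapping libraries. Arrdc2 and Chac1 had adjusted p-values of 0.181 and 0.0506 with the mouse as a block. 1700001O22Rik lost its call without injured replicate 1 (adjusted p 0.0518), Arrdc2 lost its call in 5 of the 9 fits that left out 1 library (adjusted p up to 0.158), Chac1 lost its call without injured replicates 1 and 2 (adjusted p up to 0.0809) and Smtnl1 lost its call in 3 of the 9 fits that left out 1 library (adjusted p up to 0.122).

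**Figure D1:**
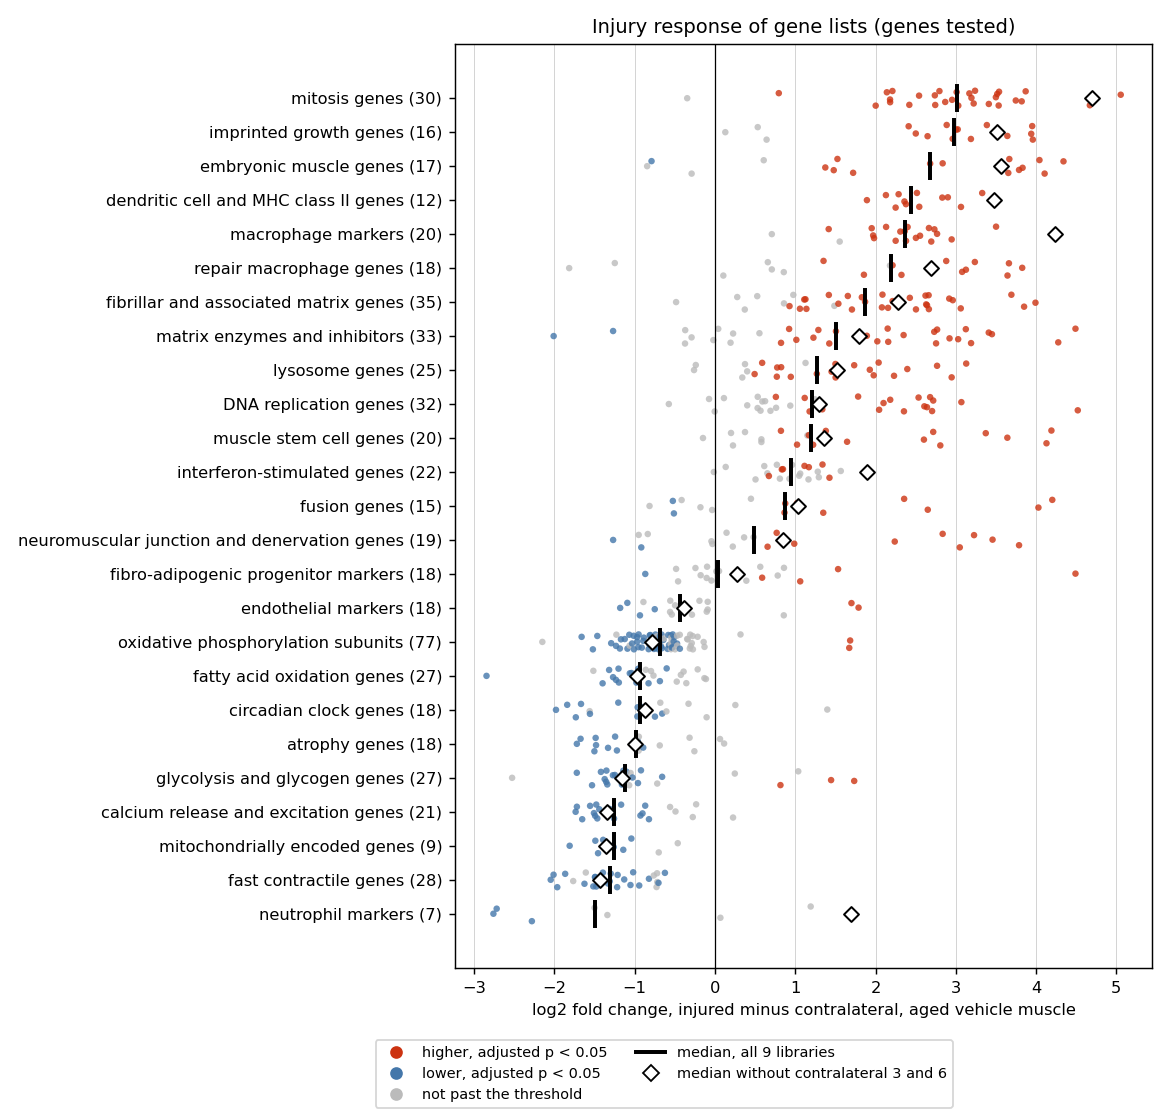
Log2 fold change (injured minus contralateral, horizontal axis) of every tested gene of 25 lists in aged vehicle muscle, 1 point per gene, coloured by the edgeR call, with the list's median as a bar and the median without contralateral replicates 3 and 6 as an open diamond. The medians run from 3.02 for mitosis genes to -1.501 for neutrophil markers, and the diamond of the neutrophil list lies on the other side of 0.

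Muscle stem cell genes were higher at day 5. Of 20 tested, 13 were higher and 0 lower, and the list's median on the log2 scale was 1.196 where the median over all genes was -0.01. Pax7, the defining transcription factor of these cells, measured 17.9, 22.7 and 26.6 CPM in injured replicates 1 to 3 and 1.03 to 6.06 CPM (median 3.06) in contralateral muscle. It rose by 2.81 (SE 0.35, adjusted p = 3.67e-07), and every injured library held more than any contralateral one. Myf5, the activator that marks cells ready to enter the myogenic programme, was counted in only 3 of the 6 contralateral libraries, at no more than 0.449 CPM, and measured 1.97, 3.67 and 3.79 CPM in the injured ones. Fgfr4, a receptor for fibroblast growth factors in myogenic cells, lay between 0 and 3.14 CPM (median 0.797) in contralateral muscle and at 13.1, 16.003 and 13.9 CPM in the 3 injured libraries, and Peg3, an imprinted gene expressed in stem cells of muscle, was measured at 164, 291 and 142 CPM after injury and at 6.01 to 40.8 CPM (median 7.56) in the contralateral leg. Both groups of values were separate for each gene, with increases of 3.37 (SE 0.46, adjusted p = 1.43e-06) and 3.64 (SE 0.46, adjusted p = 5.27e-07). Megf10, which regulates the proliferation of these cells, was at 0 CPM in contralateral replicates 1, 2, 4 and 5, at 1.57 CPM and 0.817 CPM in replicates 3 and 6, and at 6.99, 6.001 and 10.98 CPM after injury. The count was 13 higher and 0 lower with the mouse as a block and 14 and 0 without contralateral replicates 3 and 6.

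The regulators that drive differentiation were split. Of 21 tested, 7 were higher and 4 lower. Myod1, which commits cells to the muscle lineage, measured 17.4, 22.2 and 32.1 CPM in injured replicates 1 to 3 and 1.32 to 22.03 CPM (median 8.61) in contralateral muscle, and the groups overlapped (log2 fold change 1.32, adjusted p = 0.0546). Myog, which switches on terminal differentiation, lay between 0.258 and 20.9 CPM (median 3.93) in contralateral muscle and at 67.6, 79.5 and 134 CPM in the 3 injured libraries. All 3 injured libraries were above the highest contralateral value, which belonged to replicate 3, and Myog rose by 3.52 (SE 0.55, adjusted p = 8.11e-06), or by 5.31 without replicates 3 and 6. Msc, a repressor of Myod1 activity found in precursor cells, was measured at 32.4, 42.7 and 30.5 CPM after injury and at 0.794 to 7.18 CPM (median 2.42) in the contralateral leg and rose by 3.32 (SE 0.39, adjusted p = 2.13e-07). The 4 members that fell were Mef2c (-0.98) and its relative Mef2d (-0.41), the myosin-assembly methyltransferase Smyd1 (-0.96) and Eya1 (-0.83), which supports the fast glycolytic programme. Smyd1 measured 262, 253 and 198 CPM in injured replicates 1 to 3 and 323 to 568.4 CPM (median 468) in contralateral muscle, without overlap, whereas the libraries overlapped for Mef2c, Mef2d and Eya1. Mef2d and Eya1 had adjusted p-values of 0.0827 and 0.0692 with the mouse as a block. Mef2c lost its call without injured replicate 3 (adjusted p 0.0601), Mef2d lost its call in 6 of the 9 fits that left out 1 library (adjusted p up to 0.15) and Eya1 lost its call in 6 of the 9 fits that left out 1 library (adjusted p up to 0.128).

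Fusion genes were led by both fusogens. Of 15 tested, 8 were higher and 2 lower, at a median of 0.87. Mymk, the membrane protein myomaker that prepares myoblasts for fusion, lay between 0.516 and 64.2 CPM (median 1.95) in contralateral muscle and at 185, 223 and 300.1 CPM in the 3 injured libraries. The increase of 4.03 (SE 0.81, adjusted p = 0.000212) was without overlap, and contralateral replicate 3, at 64.2 CPM, held most of the contralateral counts. Mymx, the small fusogenic peptide myomixer, was measured at 13.6, 15.2 and 32.6 CPM after injury and at 0 to 4.49 CPM (median 0.129) in the contralateral leg and rose by 4.203 (SE 0.61, adjusted p = 3.38e-06). The adhesion gene Cdh2 rose by 2.65 and the membrane-repair ferlin Myof by 2.36. The falls were of Ano5 (-0.53) and Dysf (-0.51), membrane-repair genes of the adult fibre, and the block left 8 genes higher and 0 lower. Cav3 (0.45), Bin1 (-0.42) and Tmem182 (-0.82) were among the 5 that did not pass. Ano5 and Dysf had adjusted p-values of 0.123 and 0.206 with the mouse as a block. Ano5 lost its call in 5 of the 9 fits that left out 1 library (adjusted p up to 0.181) and Dysf lost its call in 4 of the 9 fits that left out 1 library (adjusted p up to 0.127).

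Embryonic contractile genes showed some of the largest increases of the experiment. Of 17 tested, 13 were higher and 1 lower, at a median of 2.68. Myh3, the embryonic myosin heavy chain and a marker of newly formed fibres, measured 1056, 933 and 1123 CPM in injured replicates 1 to 3 and 2.23 to 248.8 CPM (median 14.9) in contralateral muscle. Myh8, the perinatal myosin heavy chain, lay between 5.41 and 166 CPM (median 21.1) in contralateral muscle and at 1323, 1761 and 825 CPM in the 3 injured libraries. In both genes the upper end of the contralateral range was set by replicates 3 and 6, at 248.8 CPM and 91.7 CPM for Myh3 and 166 CPM and 164 CPM for Myh8, and still no library overlapped. Myh3 rose by 4.04 (SE 0.93, adjusted p = 0.000895) and Myh8 by 4.34 (SE 0.97, adjusted p = 0.000621). Without these 2 libraries the estimates were 6.88 and 6.63. Myl4, the embryonic light chain, was measured at 369, 444 and 346 CPM after injury and at 4.03 to 64.8 CPM (median 6.54) in the contralateral leg and rose by 4.11 (SE 0.66, adjusted p = 1.3e-05). Actc1, the cardiac actin that precedes skeletal actin in new fibres, measured 2540.4, 4162 and 1462 CPM in injured replicates 1 to 3 and 61.4 to 464 CPM (median 154) in contralateral muscle and rose by 3.67 (SE 0.58, adjusted p = 1e-05). The kinase Nrk, at 0 CPM in 4 contralateral libraries, measured 2.87, 4.501 and 2.896 CPM after injury. Des, which encodes the intermediate filament desmin of all muscle fibres, was the member that fell (-0.79, adjusted p = 0.00148). Mybph (0.61) and Xirp1 (-0.85) were among the 3 that did not pass. Des had an adjusted p of 0.0769 with the mouse as a block.

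**Figure D2:**
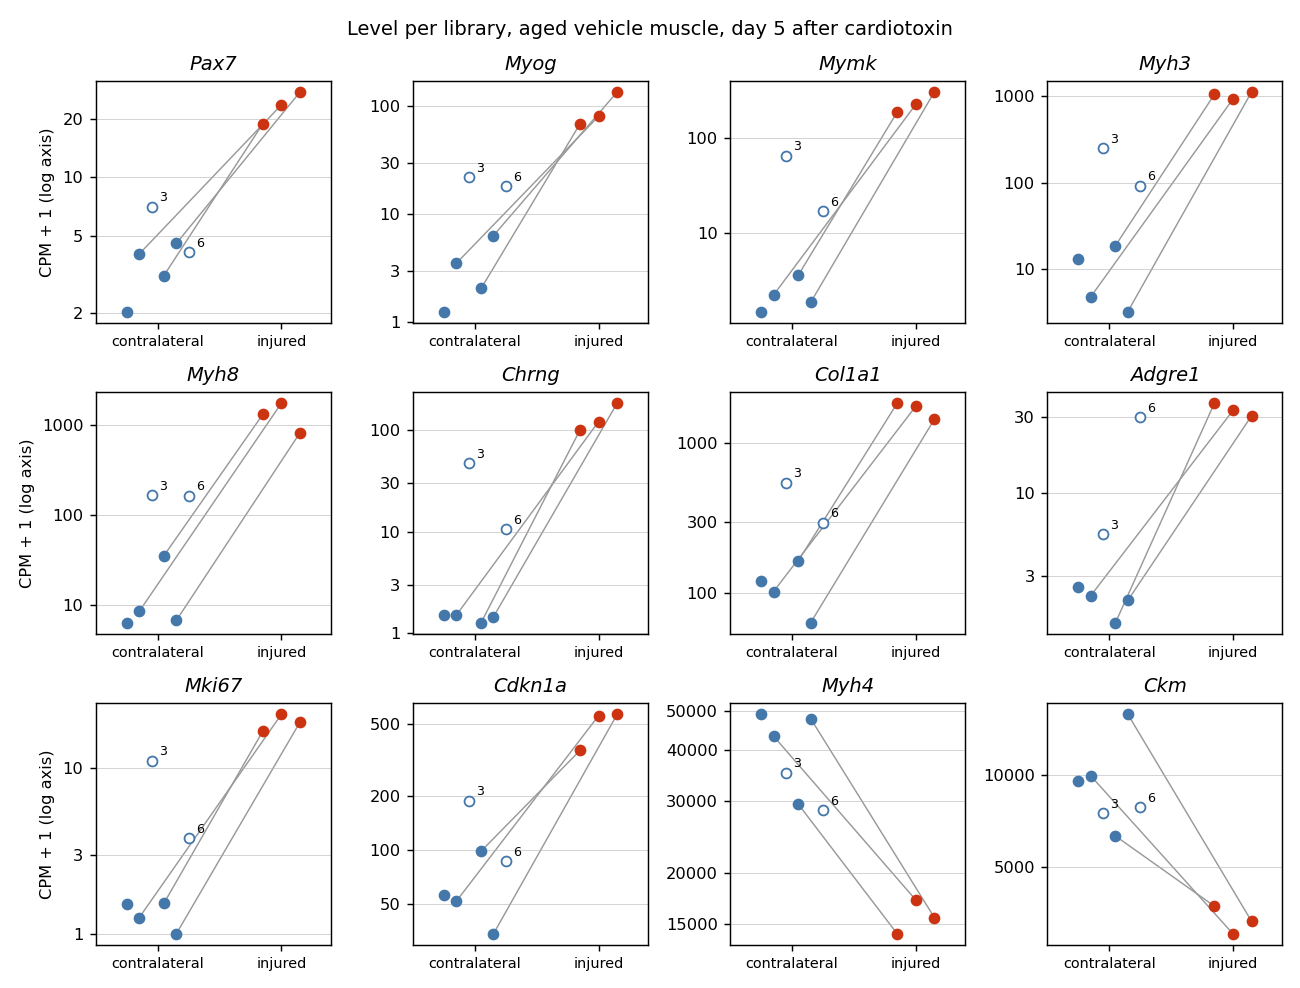
Levels of 12 genes in each library (CPM + 1, log axis), with contralateral libraries in blue and injured ones in red, contralateral replicates 3 and 6 drawn open and numbered, and grey lines joining both legs of a mouse. Pax7, Myog, Mymk, Myh3, Myh8, Chrng, Col1a1, Adgre1, Mki67 and Cdkn1a lie higher in every injured library than in any contralateral one, and Myh4 and Ckm lower.

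Receptor genes of the neuromuscular junction moved in opposite directions. In adult muscle the epsilon subunit of the acetylcholine receptor replaces the fetal gamma subunit, and a fibre that is not innervated expresses the fetal form again. Of 19 genes of the junction and of denervation, 9 were higher and 2 lower, at a median of 0.48. Chrng, the gamma subunit, lay between 0.265 and 46.4 CPM (median 0.51) in contralateral muscle and at 100.4, 121 and 185 CPM in the 3 injured libraries. Contralateral replicate 3, at 46.4 CPM, and replicate 6, at 9.64 CPM, were far above the other 4 contralateral libraries (0.265 to 0.516 CPM), yet below every injured one (3.79 (SE 0.78, adjusted p = 0.000266)). Chrna1, the alpha subunit, was measured at 228, 285 and 451 CPM after injury and at 6.88 to 83.02 CPM (median 23.5) in the contralateral leg and rose by 3.23 (SE 0.53, adjusted p = 1.67e-05), and the delta subunit Chrnd rose by 3.46 (SE 0.46, adjusted p = 1.1e-06). Chrne, the epsilon subunit, measured 6.81, 6.17 and 5.39 CPM in injured replicates 1 to 3 and 8.34 to 18.2 CPM (median 17.4) in contralateral muscle. It fell by 1.27 (SE 0.41, adjusted p = 0.0133) without overlap. Ncam1, an adhesion molecule of myoblasts and denervated fibres, lay between 25.6 and 267 CPM (median 57.1) in contralateral muscle and at 504, 632 and 735 CPM in the 3 injured libraries and rose by 2.84 (SE 0.46, adjusted p = 1.66e-05). Hdac4, a repressor that acts in the denervation response, fell (-0.92). Without contralateral replicates 3 and 6 the list's median was 0.85. Chrne and Hdac4 had adjusted p-values of 0.0615 and 0.0722 with the mouse as a block. Chrne lost its call without injured replicate 3 (adjusted p 0.0669).

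The promoters of 3 receptor subunits are shown because their transcripts moved in opposite directions while the same motif occurred in each. The E-box CAGCTG, a sequence that myogenic factors such as Myod1 and Myog bind, was searched on both strands in the 200 bases before the annotated start (RefSeq, GRCm38.p6) and is in capitals. It was found in 5 of 13 promoters of the junction list (38.5%) and in 5 of 15 of the embryonic list (33.3%). Fusion genes held it in 3 of 11 promoters (27.3%). Fast contractile genes, which were mostly lower after injury, held it in 6 of 21 (28.6%). Among all 27025 genes with a promoter, 12.4% held it. Chrng (chr1:87205611-87205810, plus strand) held it 155 and 132 bases before the start, Chrna1 (chr2:73580339-73580538, minus strand) 92 and 44 bases before it, and Chrne (chr11:70619195-70619394, minus strand) 138 bases before it.
Chrng: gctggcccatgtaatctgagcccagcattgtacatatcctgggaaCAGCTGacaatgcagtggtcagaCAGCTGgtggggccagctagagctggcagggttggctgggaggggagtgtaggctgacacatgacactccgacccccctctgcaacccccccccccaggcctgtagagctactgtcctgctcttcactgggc
Chrna1: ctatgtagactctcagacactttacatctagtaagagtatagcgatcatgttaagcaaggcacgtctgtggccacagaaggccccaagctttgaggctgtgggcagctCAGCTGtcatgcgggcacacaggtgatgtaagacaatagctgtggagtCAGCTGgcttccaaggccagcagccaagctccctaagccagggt
Chrne: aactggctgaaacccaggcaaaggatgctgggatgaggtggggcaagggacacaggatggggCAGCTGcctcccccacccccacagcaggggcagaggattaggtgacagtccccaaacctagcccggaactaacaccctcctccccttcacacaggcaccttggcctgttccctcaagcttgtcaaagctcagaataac
These matches are letters in a window and were not tested for binding.

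Imprinted growth genes, which are expressed from 1 parental copy and belong largely to a network active in the embryo, were higher almost throughout. Of 16 tested, 13 were higher and 0 lower, at a median of 2.98, the largest median of any list beside that of mitosis genes. Peg10 was measured at 24.9, 22.5 and 16.97 CPM after injury and at 0.258 to 3.596 CPM (median 0.894) in the contralateral leg, and Mest measured 25.99, 41.5 and 31.4 CPM in injured replicates 1 to 3 and 0.529 to 4.04 CPM (median 1.904) in contralateral muscle. Zdbf2 lay between 1.26 and 17.95 CPM (median 2.83) in contralateral muscle and at 71.5, 132 and 96.4 CPM in the 3 injured libraries. No library overlapped in these 3 genes, which rose by 3.96 (SE 0.501, adjusted p = 5.27e-07), 3.94 (SE 0.49, adjusted p = 4.63e-07) and 3.95 (SE 0.53, adjusted p = 1.12e-06). Cdkn1c, the imprinted inhibitor of cyclin-dependent kinases that accompanies exit from the cell cycle, was measured at 327, 453 and 576 CPM after injury and at 27.8 to 101 CPM (median 45.5) in the contralateral leg and rose by 3.02 (SE 0.31, adjusted p = 2.77e-08). H19, a maternally expressed long non-coding RNA of fetal muscle, named after its values were seen, measured 6592, 12079 and 5176 CPM in injured replicates 1 to 3 and 274 to 2695 CPM (median 1448) in contralateral muscle and rose by 2.41 (SE 0.45, adjusted p = 9e-05). Igf2r (0.64) and Ndn (0.53) were among the 3 that did not pass. Igf2r had an adjusted p of 0.0354 under that block, below the threshold.

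Of 14 genes of the IGF axis 4 were higher and 3 lower, and 7 did not pass. Igf2, the imprinted growth factor of differentiating myoblasts, lay between 0.252 and 3.59 CPM (median 0.585) in contralateral muscle and at 8.78, 18.7 and 9.98 CPM in the 3 injured libraries and rose by 3.39 (SE 0.49, adjusted p = 3.59e-06). Igf1, made by macrophages and fibres during repair, was measured at 90.7, 99.02 and 95.5 CPM after injury and at 25.4 to 54.3 CPM (median 35.9) in the contralateral leg. The injured values of Igf1 lay close together, above every contralateral library (1.35 (SE 0.25, adjusted p = 9.12e-05)). The binding protein Igfbp2 rose by 2.18 with overlapping libraries. Irs2, the docking protein of the insulin receptor (-1.29), Insr, the receptor itself (-0.9001), and Igfbp6 (-0.94) fell. Igfbp2 and Igfbp6 had adjusted p-values of 0.167 and 0.102 with the mouse as a block. Igfbp2 lost its call in 8 of the 9 fits that left out 1 library (adjusted p up to 0.0957), Irs2 lost its call without injured replicate 2 (adjusted p 0.0703) and Igfbp6 lost its call in 3 of the 9 fits that left out 1 library (adjusted p up to 0.0926).

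Genes of cell division were higher, and those of mitosis more so than those of DNA replication. Of 30 mitosis genes 29 were higher and 0 lower, at a median of 3.02, and of 32 DNA replication genes 17 were higher and 0 lower, at a median of 1.21. Mki67, the common marker of cycling cells, measured 15.8, 20.2 and 17.97 CPM in injured replicates 1 to 3 and 0 to 10.1 CPM (median 0.522) in contralateral muscle. Contralateral replicate 3 held 10.1 CPM, replicate 6 held 2.78 CPM and the other 4 at most 0.529 CPM, and the increase was 2.87 (SE 0.64, adjusted p = 0.000588). Cenpf, a kinetochore protein, lay between 0.252 and 3.14 CPM (median 0.849) in contralateral muscle and at 18.8, 22.004 and 20.9 CPM in the 3 injured libraries, and Cdc20, the activator of the anaphase-promoting complex, was measured at 10.04, 12.002 and 11.3 CPM after injury and at 0 to 1.57 CPM (median 0.51) in the contralateral leg. They rose by 3.87 (SE 0.45, adjusted p = 1.53e-07) and 3.82 (SE 0.55, adjusted p = 3.14e-06), without overlap. Ect2, needed for cytokinesis, and Bub1, a spindle checkpoint kinase, were each counted in 1 contralateral library only, at 0.224 CPM and 0.163 CPM, against 1.61, 2.5005 and 1.897 CPM and 1.79, 0.667 and 1.997 CPM in the injured libraries. Among replication genes, the helicase subunit Mcm6 measured 11.1, 9.84 and 12.7 CPM in injured replicates 1 to 3 and 0.504 to 2.94 CPM (median 1.59) in contralateral muscle and rose by 2.71 (SE 0.34, adjusted p = 3.67e-07). The ribonucleotide reductase subunit Rrm2 rose by 3.07 and the repressor E2f8 by 4.52, both without overlap, and Uhrf1, which maintains DNA methylation, by 2.72 with overlap. Aurka was the mitosis gene that did not pass, at -0.35 (adjusted p = 0.491). The mitosis median was 4.696 without contralateral replicates 3 and 6, and 26 of 30 were higher with the mouse as a block. Uhrf1 lost its call without injured replicate 3 (adjusted p 0.0799).

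Promoters of 3 mitosis genes are printed because members of this list share short motifs. In capitals are CCAAT, the box bound by NF-Y, and TTTGAA, the cell cycle homology region of genes expressed late in the cycle. Both were searched on either strand of the 200 bases before the start. CCAAT was found in 22 of 25 mitosis promoters (88.0%), in 15 of 26 DNA replication promoters (57.7%) and in 32.7% of all. TTTGAA was found in 10 of 25 (40.0%), in 3 of 26 (11.5%) and in 14.4% of all, and the pair together in 10 of 25 mitosis promoters against 4.32% of all.
Cdc20 (chr4:118437344-118437543, minus strand): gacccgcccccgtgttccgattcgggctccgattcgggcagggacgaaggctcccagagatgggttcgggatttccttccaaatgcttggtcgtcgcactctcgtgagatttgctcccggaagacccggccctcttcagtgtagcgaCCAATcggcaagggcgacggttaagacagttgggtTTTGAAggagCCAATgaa
Ect2 (chr3:27153879-27154078, minus strand): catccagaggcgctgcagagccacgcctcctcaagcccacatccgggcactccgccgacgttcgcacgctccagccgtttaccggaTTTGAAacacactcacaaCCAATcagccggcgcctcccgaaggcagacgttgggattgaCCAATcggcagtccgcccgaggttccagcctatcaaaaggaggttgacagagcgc
Cenpf (chr1:189688087-189688286, minus strand): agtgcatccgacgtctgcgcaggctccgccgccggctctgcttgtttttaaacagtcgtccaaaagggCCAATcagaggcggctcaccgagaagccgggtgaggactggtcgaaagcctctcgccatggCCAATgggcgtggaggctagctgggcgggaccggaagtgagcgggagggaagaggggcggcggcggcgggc
Cdc20 and Ect2 held both motifs and Cenpf CCAAT alone, although the 3 genes moved together.

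Of 12 inhibitors of the cell cycle 4 were higher and 1 lower, a share close to the background, and 7 did not pass. Cdkn1a (p21), which arrests the cycle in differentiating and in stressed cells, lay between 32.9 and 187 CPM (median 70.1) in contralateral muscle and at 357, 559 and 568.3 CPM in the 3 injured libraries and rose by 2.55 (SE 0.41, adjusted p = 1.23e-05). Cdkn2a, the locus of p16 and p19 and a marker of senescent cells, was measured at 6.45, 6.501 and 10.7 CPM after injury and at 0 to 1.795 CPM (median 0.821) in the contralateral leg. The groups did not overlap for Cdkn2a (3.15 (SE 0.64, adjusted p = 0.000214)). Btg1, an antiproliferative gene, rose by 1.34 and Ccng1, a target of p53, fell by 0.98 (SE 0.22, adjusted p = 0.000601). Btg1 lost its call without injured replicate 2 (adjusted p 0.219).

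Matrix genes rose together. Of 35 genes of the fibrillar matrix, 28 were higher and 0 lower, at a median of 1.87, and 27 were higher with the mouse as a block. Col1a1, the chain of type I collagen, measured 1828, 1744 and 1426 CPM in injured replicates 1 to 3 and 62.98 to 541 CPM (median 141) in contralateral muscle. Col3a1, the type III collagen of early repair, lay between 32.05 and 251 CPM (median 62.5) in contralateral muscle and at 853, 893 and 760.3 CPM in the 3 injured libraries. Neither overlapped, and they rose by 2.96 (SE 0.55, adjusted p = 7.57e-05) and 3.06 (SE 0.48, adjusted p = 9.54e-06). Postn, a matricellular protein of healing tissue, was measured at 197, 202 and 124 CPM after injury and at 1.34 to 27.6 CPM (median 3.66) in the contralateral leg and rose by 3.99 (SE 0.77, adjusted p = 0.000133), and Tnc, a matrix protein of regenerating muscle, measured 70.3, 61.5 and 77.98 CPM in injured replicates 1 to 3 and 0.89 to 12.3 CPM (median 3.11) in contralateral muscle and rose by 3.69 (SE 0.55, adjusted p = 5.34e-06). Fbn2, the fibrillin of developing tissue, rose by 3.85 (SE 0.69, adjusted p = 4.85e-05). Ltbp2, Ccn4 and P4ha3, the latter a collagen hydroxylase subunit, were further genes with large increases. Ltbp2, a binding protein of the elastic matrix, lay between 0 and 3.14 CPM (median 1.37) in contralateral muscle and at 28.5, 30.01 and 24.6 CPM in the 3 injured libraries. Ccn4, a matricellular target of Wnt signalling, was measured at 24.2, 28.01 and 36.3 CPM after injury and at 0.223 to 4.94 CPM (median 0.888) in the contralateral leg.

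Other parts of the matrix changed less evenly. Basement membrane genes counted 9 higher and 0 lower of 16, led by Col18a1 (1.99), Sparc (1.54), the laminin chain Lamb1 (1.45) and perlecan, Hspg2 (1.17). Matrix enzymes and inhibitors counted 23 higher and 2 lower of 33. Adam12, a protease of fusing myoblasts and activated fibroblasts, was at 0 CPM in 3 contralateral libraries, at up to 1.57 CPM in the others and at 15.2, 16.7 and 9.19 CPM after injury. Mmp12, the macrophage elastase, was at 0 CPM in contralateral replicates 1, 2, 4 and 5, near 3 CPM in replicates 3 and 6 and at 14.5, 16.8 and 7.69 CPM in injured muscle. The inhibitors of these enzymes diverged: Timp1 measured 37.6, 37.5 and 52.02 CPM in injured replicates 1 to 3 and 0.516 to 10.8 CPM (median 2.59) in contralateral muscle and rose by 3.41 (SE 0.52, adjusted p = 6.16e-06), whereas Timp4 (-2.01) and Timp3 (-1.27) fell, all without overlap.

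Markers of the mesenchymal cells that make matrix did not rise as a group. Of 18 markers of fibro-adipogenic progenitors 4 were higher and 1 lower, at a median of 0.03, close to the median over all genes, and a share below the background. Pdgfra, their defining receptor, lay between 6.05 and 8.99 CPM (median 7.26) in contralateral muscle and at 9.499, 9.002 and 13.7 CPM in the 3 injured libraries, an increase without overlap that did not pass (0.56, adjusted p = 0.0575). Mfap5 (1.53) and Col15a1 (1.06) rose beside Adam12, and Clec3b fell (-0.87). Tenocyte markers counted 2 higher and 0 lower of 7, namely Thbs4 (1.71) and the transcription factor Scx (1.49), while Tnmd (0.83), the marker of mature tendon cells, was among the 5 that did not pass. Col15a1 and Clec3b had adjusted p-values of 0.0591 and 0.14 with the mouse as a block. Clec3b lost its call without injured replicate 1 (adjusted p 0.05004) and Scx lost its call in 3 of the 9 fits that left out 1 library (adjusted p up to 0.357).

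TGF-beta family genes were mixed, at 7 higher and 8 lower of 35, shares close to the background. The latent binding protein Ltbp2, the stress-induced factor Gdf15 (1.83) and the follistatin-like gene Fstl1 (1.79) rose. Mstn, myostatin, the fibre-derived inhibitor of muscle growth, was measured at 7.17, 8.17 and 4.39 CPM after injury and at 8.205 to 29.5 CPM (median 19.7) in the contralateral leg. It fell by 1.61 (SE 0.53, adjusted p = 0.0159) without overlap. Spp1 (osteopontin), a cytokine made by macrophages and matrix cells, measured 21.1, 19.8 and 30.95 CPM in injured replicates 1 to 3 and 0 to 6.06 CPM (median 0.71) in contralateral muscle and rose by 3.66 (SE 0.65, adjusted p = 4.67e-05). Mstn had an adjusted p of 0.0983 with the mouse as a block. Mstn lost its call without injured replicate 3 (adjusted p 0.0967).

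Macrophage markers were higher in injured muscle, and the size of the increase depended on contralateral replicates 3 and 6. Of 20 tested, 18 were higher and 0 lower, at a median of 2.37, and all 20 were higher, at a median of 4.23, without those libraries. All 20 were also higher with the mouse as a block. Summed over the list, contralateral replicates 1, 2, 4 and 5 held 138 to 264 CPM, replicate 3 held 933 CPM, replicate 6 held 1963 CPM and the injured libraries 2831 to 3594 CPM. Adgre1, which encodes the macrophage marker F4/80, lay between 0.529 and 28.8 CPM (median 1.403) in contralateral muscle and at 35.5, 31.8 and 29.4 CPM in the 3 injured libraries. Replicate 6, at 28.8 CPM, was just below the lowest injured library, and the increase of 2.25 (SE 0.61, adjusted p = 0.00404) became 4.84 without replicates 3 and 6. Cd68, a lysosomal marker of phagocytes, was measured at 94.1, 93.9 and 119.9 CPM after injury and at 2.003 to 38.7 CPM (median 4.99) in the contralateral leg and rose by 2.77 (SE 0.52, adjusted p = 9.4e-05). Ms4a7 measured 43.01, 53.01 and 57.1 CPM in injured replicates 1 to 3 and 0.223 to 11.1 CPM (median 1.56) in contralateral muscle and rose by 3.502 (SE 0.48, adjusted p = 1.71e-06). The cathepsin Ctss (2.95) and the pore-forming gene Mpeg1 (2.73) rose without overlap. Cd14 (1.55) and Itgam (0.71) did not pass with all libraries. Cd14 and Itgam had adjusted p-values of 0.00645 and 0.000605 under that block, below the threshold.

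Genes of both inflammatory and repair macrophages were represented. Of the 15 genes of the inflammatory list only 7 held enough counts to be tested, of which 5 were higher and 0 lower. Ptgs2, Il6, Il1a, Il12b and Cd80 were not counted in any contralateral library, and 1 of them was not counted in any injured library either. Ccr2, the receptor of recruited monocytes, lay between 1.85 and 28.4 CPM (median 2.37) in contralateral muscle and at 42.3, 49.8 and 69.6 CPM in the 3 injured libraries and rose by 2.66 (SE 0.51, adjusted p = 0.000126). Its ligand Ccl2 rose by 2.496, Ccl3 by 2.23 and the costimulatory gene Cd86 by 2.39, while Il1b (0.27) and Ly6c2 (0.92) did not pass. The repair list counted 11 higher and 0 lower of 18. Trem2, a lipid receptor of phagocytes, was at 0 CPM in 3 contralateral libraries and at 9.1997 CPM in replicate 3, and measured 31.9, 42.01 and 38.2 CPM after injury. Cx3cr1, the fractalkine receptor, was measured at 71.9, 92.2 and 100.1 CPM after injury and at 2.02 to 25.4 CPM (median 4.58) in the contralateral leg and rose by 3.24 (SE 0.57, adjusted p = 3.98e-05). Mrc1 (CD206), a mannose receptor of resident and repair macrophages, measured 32.8, 42.01 and 71.2 CPM in injured replicates 1 to 3 and 7.68 to 26.8 CPM (median 9.31) in contralateral muscle and rose by 1.86 (SE 0.28, adjusted p = 5.17e-06). Gdf3, a factor that repair macrophages signal with, was at most 0.49 CPM in contralateral and 2.69, 3.001 and 1.997 CPM in injured muscle. Arg1, a marker of mouse repair macrophages, stayed under 1 CPM in all 9 libraries and did not pass (adjusted p = 0.321). Ly6c2 had an adjusted p of 0.0112 under that block, below the threshold. Ccl2 lost its call without injured replicate 3 (adjusted p 0.107).

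Genes of antigen-presenting cells were higher, while most T and NK cell markers were too low to be tested. All 12 genes of dendritic cells and MHC class II were higher, at a median of 2.45. H2-Aa, a class II chain, lay between 15.4 and 129 CPM (median 43.3) in contralateral muscle and at 439.6, 423 and 465 CPM in the 3 injured libraries and rose by 2.83 (SE 0.48, adjusted p = 2.89e-05), and Itgax (CD11c) was measured at 27.96, 38.7 and 27.8 CPM after injury and at 0 to 13.2 CPM (median 0.784) in the contralateral leg and rose by 3.33 (SE 0.63, adjusted p = 0.000108). Clec9a and Flt3, markers of dendritic cells, were under 3 CPM in every library. Of 20 markers of T and NK cells 8 could be tested, and 6 were higher and 1 lower, also with the mouse as a block. With only the 3 mice that gave both legs, 3 were tested, 1 higher and 1 lower. The summed level overlapped, at 48.4 to 73.2 CPM in injured and 31.7 to 64.6 CPM in contralateral libraries. Members near 0 CPM in contralateral muscle can pass the expression filter only through injured libraries, which favours a rise. Nkg7, of cytotoxic cells, reached 0.49 CPM in contralateral and 3.23, 3.33 and 0.998 CPM in injured muscle, and Cd4 measured 1.43, 0.833 and 1.697 CPM against at most 0.265 CPM. Gzma rose (2.97), and Klrb1c was counted in 1 contralateral library and in all injured ones. Ikzf2, a transcription factor of regulatory T cells that the muscle libraries held at 10.4 CPM or more, fell by 1.41 (SE 0.34, adjusted p = 0.00129). Cd3e and Foxp3 were too low to be tested. Of 10 B cell markers only 2 were tested, of which Cd22 was higher (3.89) and Cd79b did not pass (0.94).

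**Figure D3:**
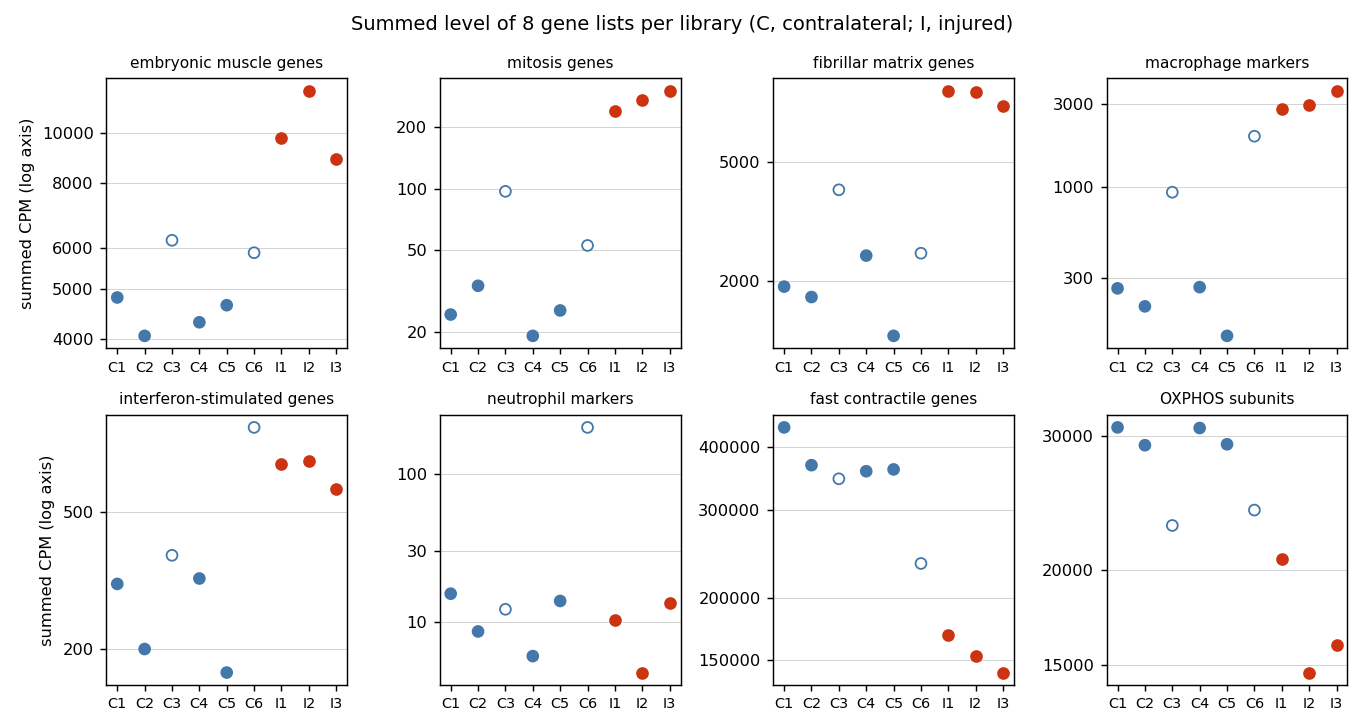
Summed CPM of 8 gene lists in each library (log axis), with contralateral libraries C1 to C6 in blue, replicates 3 and 6 open, and injured libraries I1 to I3 in red. Macrophage markers sum to 1963 CPM in C6, and neutrophil markers to 209 CPM in C6 against 4.501 to 13.3 CPM in injured libraries.

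Neutrophil markers were lower with contralateral replicate 6 in the fit and not without it. With all libraries 0 of 7 were higher and 3 lower, at a median of -1.501, and without replicate 6 the count was 1 higher and 0 lower, at a median of 0.49. The mouse block likewise gave 1 higher and 0 lower. S100a8, a calcium-binding protein of neutrophils, measured 3.23, 0.333 and 4.09 CPM in injured replicates 1 to 3 and 3.18 to 77.2 CPM (median 5.03) in contralateral muscle. The highest value was that of replicate 6, and the next was 7.99 CPM. Its estimate of -2.72 (adjusted p = 0.0103) was -0.91 (adjusted p = 0.336) with the mouse as a block. Lcn2 went from -2.76 to 0.92 under the block, and S100a9 from -2.28 to -0.97. Saa3, the largest fall of the experiment at -6.44 (adjusted p = 0.00444), measured 2.69, 2.17 and 0.799 CPM in injured replicates 1 to 3 and at most 0.504 CPM in 5 contralateral libraries. It turned into a rise of 2.76 (adjusted p = 0.0268) with the block and of 2.79 without replicates 3 and 6. Csf3r (1.19), the receptor of the growth factor of these cells, was among the 4 markers that did not pass. Lcn2 and S100a9 had adjusted p-values of 0.402 and 0.408 with the mouse as a block. S100a8 lost its call without contralateral replicate 6 and injured replicate 2 (adjusted p up to 0.231) and S100a9 lost its call in 4 of the 9 fits that left out 1 library (adjusted p up to 0.434).

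Interferon-stimulated genes depended on the same library. Of 22 tested 7 were higher and 0 lower, at a median of 0.94, whereas 18 were higher with the mouse as a block and 20, at a median of 1.8002, without contralateral replicate 6. Rtp4 lay between 2.27 and 23.05 CPM (median 5.21) in contralateral muscle and at 20.3, 20.8 and 14.6 CPM in the 3 injured libraries. Its highest contralateral value, that of replicate 6, exceeded all 3 injured ones, and the other 5 lay below them (1.17 (SE 0.39, adjusted p = 0.0165)). Bst2 (tetherin, 1.43), Ifi44 (1.34) and Stat2 (1.12) rose with overlapping libraries. Their increases without replicates 3 and 6 were 2.14, 1.99 and 1.44. Rtp4 lost its call without injured replicates 1 and 2 (adjusted p up to 0.0671) and Ifi44 lost its call without injured replicates 1 and 2 (adjusted p up to 0.064).

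Complement genes and chemokines included products of macrophages. The 3 chains of C1q, the recognition unit of the classical pathway, rose by 2.56 (C1qa), 2.38 (C1qb) and 2.69 (C1qc), without overlap. C1qb was measured at 395, 447 and 499 CPM after injury and at 19.1 to 269 CPM (median 36.4) in the contralateral leg. The receptor C3ar1 rose by 2.61, the inhibitor Cd59a fell by 0.86, and the list counted 7 higher and 1 lower of 17. Of 27 chemokines and receptors, 17 were higher and 1 lower. Cxcl16, a membrane-bound chemokine, measured 41.9, 46.01 and 44.9 CPM in injured replicates 1 to 3 and 0.504 to 9.97 CPM (median 2.12) in contralateral muscle and rose by 3.43 (SE 0.46, adjusted p = 1.11e-06). Ccl11, eotaxin, was the member that fell, at -3.14. Cxcl5, which attracts neutrophils, was at 0 CPM in all 6 contralateral libraries and measured 0.179, 0.167 and 1.997 CPM in the injured ones. These were 1, 1 and 20 counts. It was called higher, but the size of a fold change from 0 counts is not meaningful. Cxcl5 lost its call without injured replicate 3 (adjusted p 0.263). Cd59a lost its call in 3 of the 9 fits that left out 1 library (adjusted p up to 0.108) and Ccl11 lost its call in 3 of the 9 fits that left out 1 library (adjusted p up to 0.0835).

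The contractile apparatus of fast fibres was lower throughout. Of 28 genes 0 were higher and 22 lower, at a median of -1.305, and 17 were lower with the mouse as a block. Myh4, the fastest myosin heavy chain, lay between 28533 and 48965 CPM (median 39273) in contralateral muscle and at 14221, 17212 and 15588 CPM in the 3 injured libraries. Actn3, the fast alpha-actinin, was measured at 1343, 1489 and 1514 CPM after injury and at 3255 to 6439 CPM (median 4086) in the contralateral leg. Pvalb, the calcium buffer of fast fibres, measured 5515, 4294 and 4993 CPM in injured replicates 1 to 3 and 7346 to 20896 CPM (median 14491) in contralateral muscle. Each lay lower in all 3 injured libraries than in any contralateral one, and they fell by 1.31 (SE 0.35, adjusted p = 0.00306), 1.63 (SE 0.36, adjusted p = 0.000639) and 1.49 (SE 0.47, adjusted p = 0.0111). The light chain kinases Mylk4 (-2.05) and Mylk2 (-1.96), the titin cap Tcap (-2.01) and the fast myosin-binding protein Mybpc2 (-1.87) fell most. Myh1, the intermediate fast myosin, lay between 221 and 2348 CPM (median 870.1) in contralateral muscle and at 1153, 263 and 657 CPM in the 3 injured libraries and did not pass (adjusted p = 0.33). Pvalb lost its call without injured replicate 2 (adjusted p 0.0567).

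Calcium release genes were lower in the same way, with 0 higher and 16 lower of 21. Ryr1, the calcium release channel, was measured at 1381, 1438 and 1117 CPM after injury and at 1985 to 5839 CPM (median 3742) in the contralateral leg and fell by 1.51 (SE 0.35, adjusted p = 0.00102). Jph2, which holds the membranes of the triad together (-1.72), the chloride channel Clcn1 (-1.65), the sodium channel Scn4a (-1.56) and the potassium channel Kcnj2 (-1.74) fell most. Cacng1 (-0.56), Cacnb1 (-0.28), Sypl2 (-0.49) and Srl (-0.23) were among the 5 that did not pass. Of 13 slow fibre genes 3 were higher and 0 lower, a share below the background, at a median of 0.07, and 10 did not pass. Their summed level overlapped between groups, at 1974 to 2862 CPM in injured and 524 to 5529 CPM in contralateral libraries, and the difference from the fast fibre list was not tested. Tnni1, slow troponin I, measured 214, 219.5 and 208 CPM in injured replicates 1 to 3 and 6.703 to 61.5 CPM (median 28.4) in contralateral muscle and rose by 2.77 (SE 0.87, adjusted p = 0.0113). The slow calsequestrin Casq2 rose by 2.43 (SE 0.59, adjusted p = 0.00147) and the calcium pump regulator Sln by 1.96 (SE 0.59, adjusted p = 0.00837). Tnni1 had an adjusted p of 0.0562 with the mouse as a block. Kcnj2 lost its call without injured replicates 2 and 3 (adjusted p up to 0.0782) and Sln lost its call without injured replicate 2 (adjusted p 0.0517).

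Mitochondrial genes were lower from both genomes. Mitochondrial transcripts took 19.4%, 9.89% and 16.0% of counts in injured replicates 1 to 3 and between 17.5% and 24.01% in contralateral libraries, a mean of 15.1% ± 4.81 (SD, n = 3) against 21.7% ± 2.53 (SD, n = 6). The difference of -6.61 percentage points had an exact two-sided permutation p of 0.0476, and the groups overlapped. Within the 3 mice, in the order of the injured replicates, the injured leg differed from the other by -0.24, -14.1 and -6.74 percentage points. Of 9 mitochondrially encoded genes 0 were higher and 7 lower. The complex I gene mt-Nd5 lay between 4575 and 5467 CPM (median 5042) in contralateral muscle and at 2598, 1262 and 1848 CPM in the 3 injured libraries and the cytochrome oxidase gene mt-Co1 was measured at 1602, 737 and 1253 CPM after injury and at 2773 to 3959 CPM (median 3291) in the contralateral leg. They fell by 1.39 (SE 0.26, adjusted p = 9.42e-05) and 1.46 (SE 0.305, adjusted p = 0.000318), without overlap, as did mt-Nd2 (-1.49) and mt-Nd6 (-1.81). The remaining mt-Nd3 (-0.701) and mt-Atp6 (-0.46) did not pass.

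Nuclear subunits of oxidative phosphorylation counted 2 higher and 48 lower of 77, at a median of -0.69. With only the 3 mice that gave both legs, 13 were lower. Among the subunits that passed, the complex I genes Ndufs5 (-1.66) and Ndufs3 (-1.52) fell most. Both members that rose, Cox6a1 and Cox8a, encode the ubiquitous forms of subunits that have a separate muscle form. Cox6a1 measured 177, 228 and 229 CPM in injured replicates 1 to 3 and 46.1 to 91.1 CPM (median 61.8) in contralateral muscle and rose by 1.68 (SE 0.198, adjusted p = 2.08e-07). Cox8a lay between 6.62 and 40.4 CPM (median 24.7) in contralateral muscle and at 68.5, 65.2 and 89.2 CPM in the 3 injured libraries and rose by 1.67 (SE 0.41, adjusted p = 0.00154). Ppargc1a, the coactivator that drives mitochondrial gene expression, was measured at 31.7, 23.7 and 21.5 CPM after injury and at 25.8 to 68.8 CPM (median 51.3) in the contralateral leg and fell by 0.98 (SE 0.38, adjusted p = 0.0386). Fatty acid oxidation genes counted 0 higher and 16 lower of 27, led by Pdk4, the kinase that turns off pyruvate oxidation (-2.85), and by Etfdh (-1.4002), Acadm (-1.32) and Decr1 (-1.27). Ppargc1a had an adjusted p of 0.0578 with the mouse as a block. Ndufs5 lost its call without injured replicate 3 (adjusted p 0.0985), Ndufs3 lost its call without injured replicate 3 (adjusted p 0.0513) and Ppargc1a lost its call in 5 of the 9 fits that left out 1 library (adjusted p up to 0.148).

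Glycolysis and glycogen genes were mostly lower. Of 27 genes 3 were higher and 18 lower, at a median of -1.13. Pygm, muscle glycogen phosphorylase, measured 4122, 3390.5 and 2985 CPM in injured replicates 1 to 3 and 6417 to 15715 CPM (median 11360.3) in contralateral muscle and fell by 1.72 (SE 0.36, adjusted p = 0.000304), and its activating kinase subunit Phka1 fell by 1.53 (SE 0.403, adjusted p = 0.00299). The 3 that rose were Eno1 (1.73), Hk1 (1.45) and Pfkp (0.82), the non-muscle forms of enolase, hexokinase and phosphofructokinase. Hk1 lay between 4.67 and 16.2 CPM (median 11.9) in contralateral muscle and at 28.1, 37.2 and 26.5 CPM in the 3 injured libraries, without overlap. Ckm, the creatine kinase of muscle, was measured at 3733, 3032 and 3333 CPM after injury and at 6322 to 15772 CPM (median 8708) in the contralateral leg and fell by 1.495 (SE 0.296, adjusted p = 0.000167). Pfkp had an adjusted p of 0.0627 with the mouse as a block. Pfkp lost its call in 5 of the 9 fits that left out 1 library (adjusted p up to 0.203).

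Few genes of NAD and vitamin B6 metabolism, the pathways that use NAM and PN, passed in vehicle-treated aged muscle. Of 24 genes 1 was higher and 5 lower with all libraries, a share below the background. In aged mice the count was 4 higher and 5 lower without contralateral replicates 3 and 6. In young vehicle mice 7 of the 24 were higher and 12 lower, where 55.5% of all genes tested passed. The difference between ages was not tested for the list as a whole. The summed level of the list was lower without overlap, at 273 to 348 CPM in injured and 434 to 800 CPM in contralateral libraries. Nmrk2, the muscle kinase that makes NAD from nicotinamide riboside, measured 101, 39.8 and 81.9 CPM in injured replicates 1 to 3 and 85.7 to 429 CPM (median 245) in contralateral muscle. It fell by 1.86 (SE 0.497, adjusted p = 0.00342), and the highest injured library overlapped the lowest contralateral one, replicate 6. Nmrk2 alone made up much of the summed level, 265 of 539 CPM in contralateral replicate 3. Alpl, the phosphatase that frees pyridoxal from its phosphate outside the cell, fell by 2.159 (SE 0.56, adjusted p = 0.00262), Aox1, an oxidase of pyridoxal and of methylated nicotinamide, by 1.15 (SE 0.31, adjusted p = 0.004), and Pnp rose by 1.304. Nampt, the rate-limiting enzyme that recycles nicotinamide, lay between 40.7 and 91.7 CPM (median 62.8) in contralateral muscle and at 43.9, 38.01 and 52.4 CPM in the 3 injured libraries and did not pass (-0.54, adjusted p = 0.133). Pdxk, pyridoxal kinase, was measured at 15.4, 22.2 and 18.5 CPM after injury and at 6.68 to 18.6 CPM (median 12.9) in the contralateral leg and did not pass (0.52, adjusted p = 0.0769). Pnp lost its call in 6 of the 9 fits that left out 1 library (adjusted p up to 0.136).

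Pairs of genes that encode alternative forms of the same protein, and a pair of related inhibitors, were compared side by side. The pairs were chosen after their values were seen, so their opposite directions follow from that choice and are not evidence of a general pattern. In 10 pairs the embryonic, slow or general form was higher after injury and the adult fast or muscle form lower, the 11th pair was Timp1 and Timp4, and Eno3 (-0.72, adjusted p = 0.0608) was the member that did not pass with all libraries. The fetal receptor subunit Chrng (3.79) stood against Chrne (-1.27), Myh3 (4.04) against Myh4 (-1.31) and Actc1 (3.67) against Acta1 (-0.704). Slow Tnni1 (2.77) stood against fast Tnni2 (-1.397) and Casq2 (2.43) against Casq1 (-0.82). In the respiratory chain Cox6a1 (1.68) stood against Cox6a2 (-1.12) and Cox8a (1.67) against Cox8b (-1.47), and in glycolysis Hk1 (1.45) against Hk2 (-1.35) and Pfkp (0.82) against Pfkm (-1.27). Cox6a2 measured 1902, 837 and 1319 CPM in injured replicates 1 to 3 and 2759 to 3199 CPM (median 2955) in contralateral muscle, a fall without overlap. Acta1 and Casq1 had adjusted p-values of 0.18 and 0.0866 with the mouse as a block. Acta1 lost its call in 6 of the 9 fits that left out 1 library (adjusted p up to 0.12) and Casq1 lost its call in 3 of the 9 fits that left out 1 library (adjusted p up to 0.0908).

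**Figure D4:**
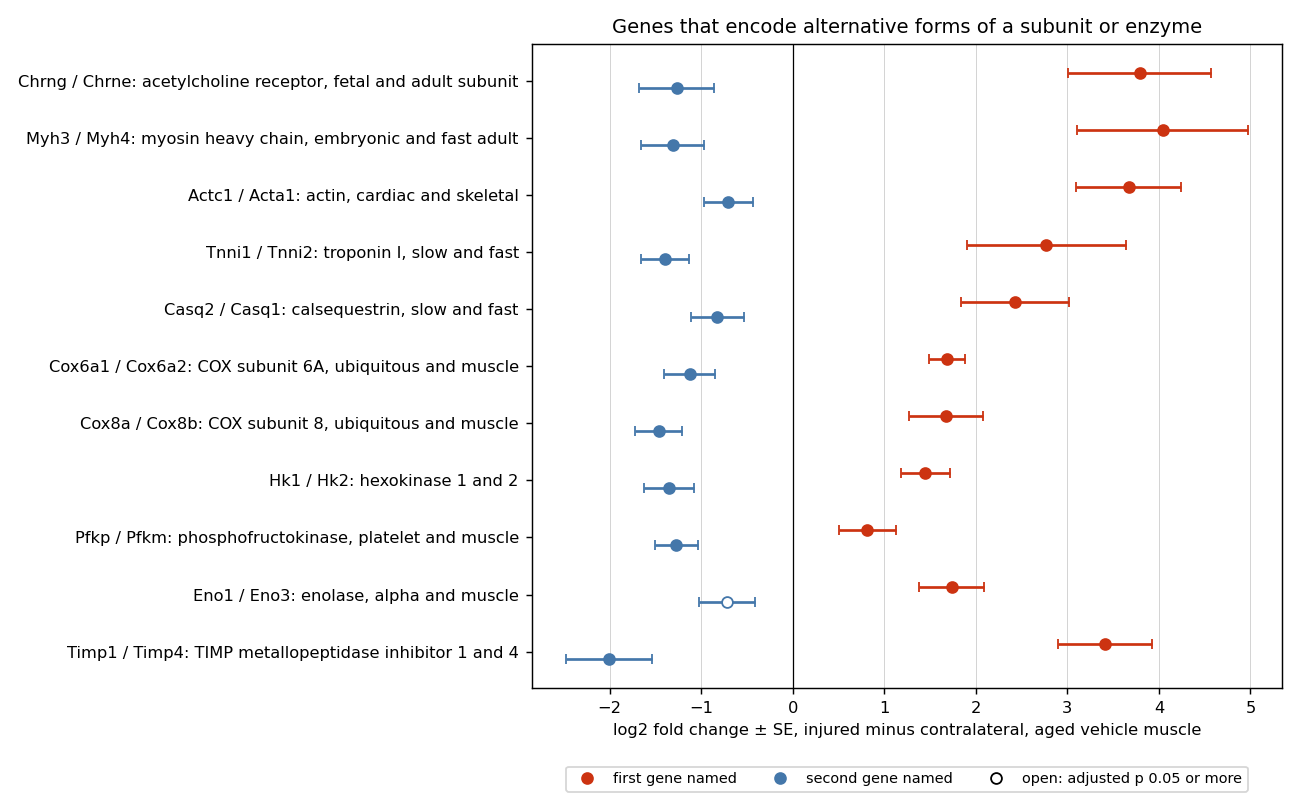
Log2 fold change with its standard error (injured minus contralateral) for 11 pairs of genes, the first of each pair in red and the second in blue, with open symbols for an adjusted p of 0.05 or more. Red points lie to the right of 0 and blue points to the left in all 11 pairs, and Eno3 is the open symbol. The pairs were chosen after their values were seen, so this arrangement follows from the choice.

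Genes of protein breakdown in fibres and of lysosomes moved in opposite directions. Of 18 atrophy genes 0 were higher and 11 lower. Fbxo32, the muscle ubiquitin ligase atrogin-1, lay between 318 and 789 CPM (median 519) in contralateral muscle and at 134, 175 and 179 CPM in the 3 injured libraries and fell by 1.72 (SE 0.39, adjusted p = 0.00079). Asb2 (-1.67), the glucocorticoid-induced factor Klf15 (-1.502) and the transcription factor Foxo4 (-1.49) fell as well. Proteasome subunits counted 1 higher and 11 lower of 34 (2 and 4 with the mouse as a block), with falls of at most 0.98 (Psmd4, followed by Psmd12 at -0.82 and Psmc5 at -0.79), and the member that rose was Psmb8, a subunit of the immunoproteasome (0.92). Lysosome genes counted 19 higher and 0 lower of 25, at a median of 1.27. The bone and macrophage protease Ctsk rose by 2.396, and the proton pump subunit Atp6v0d2 was measured at 14.9, 14.3 and 22.5 CPM after injury and at 0 to 7.18 CPM (median 0.126) in the contralateral leg. Ctss and Cd68, given above with the macrophage markers, are also members of this list. Klf15 and Psmc5 had adjusted p-values of 0.0967 and 0.0571 with the mouse as a block. Klf15 lost its call in 4 of the 9 fits that left out 1 library (adjusted p up to 0.084), Psmc5 lost its call without injured replicate 3 (adjusted p 0.0532) and Psmb8 lost its call in 7 of the 9 fits that left out 1 library (adjusted p up to 0.104).

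Vessel, nerve and fat markers did not rise as groups. Of 18 endothelial markers 2 were higher and 4 lower. Pecam1, the general marker of these cells, measured 37.8, 32.5 and 35.5 CPM in injured replicates 1 to 3 and 31.2 to 44.95 CPM (median 38.4) in contralateral muscle, with overlapping groups (-0.103, adjusted p = 0.7). Prox1, of lymphatic vessels and also of muscle stem cells and slow fibres, rose by 1.79 and the apelin receptor Aplnr by 1.7004, while the growth factor receptor Flt1 (-1.18) and the phosphatase Ptprb (-1.09) fell. Pericyte and smooth muscle markers counted 1 higher and 6 lower of 12. Myh11, smooth muscle myosin (-1.45), Cnn1 (-2.04) and Kcnj8 (-1.098) fell, and Acta2, the actin of smooth muscle and myofibroblasts, lay between 29.9 and 177 CPM (median 73.7) in contralateral muscle and at 206, 207 and 255 CPM in the 3 injured libraries and rose by 1.37 (SE 0.38, adjusted p = 0.00428). Pdgfrb (0.66), Cspg4 (0.54) and Tagln (-0.303) were among the 5 that did not pass. Schwann cell markers counted 1 higher and 1 lower of 11, and the injury-induced receptor Ngfr rose by 1.74 (SE 0.43, adjusted p = 0.0019). Adipocyte markers counted 0 higher and 1 lower of 10, with a fall of Plin4 (-1.89), which fibres also express. Erythroid genes counted 0 of 5 in either direction, the globins and Alas2 lying between -0.86 (Hbb-bt) and -0.25 (Hba-a2), and liver genes 0 of 12. Aplnr, Ptprb and Kcnj8 had adjusted p-values of 0.0734, 0.0513 and 0.0537 with the mouse as a block. Hbb-bt had an adjusted p of 0.0442 under that block, below the threshold. Prox1 lost its call without injured replicate 2 (adjusted p 0.0500004), Ptprb lost its call without injured replicate 3 (adjusted p 0.0593), Cnn1 lost its call in 3 of the 9 fits that left out 1 library (adjusted p up to 0.121) and Kcnj8 lost its call without injured replicates 2 and 3 (adjusted p up to 0.124).

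The aged vehicle response was set against that of young vehicle mice, measured in other animals. In young mice 7004 genes (55.5%) passed. The test of the difference between both responses called 0 genes by edgeR (0%), with 1223 (9.7%) at an unadjusted p under 0.05, 22 genes by DESeq2 and 0 by voom with quality weights. No difference between ages was thus shown for a named gene by the main test, and the values are given side by side. The medians of the leading lists were closer to 0 in aged than in young mice: mitosis genes 3.02 against 4.87, macrophage markers 2.37 against 4.23, embryonic muscle genes 2.68 against 3.54, interferon-stimulated genes 0.94 against 2.105, and fast contractile genes -1.305 against -1.92. Without contralateral replicates 3 and 6 the aged medians were 4.696, 4.23, 3.57, 1.896 and -1.43. The first 4 lists then lay near their young medians and the fast fibre list did not. Of its 28 genes, however, 6 had an unadjusted p under 0.05 for the difference with all libraries. Only 1 had such a p without contralateral replicates 3 and 6, where 860 of all 12583 genes tested did. Myh3 rose by 4.04 in aged and 6.82 in young mice, and by 6.88 in aged mice without those libraries. Pax7 rose by 2.81 and 2.997, and Myh4 fell by 1.31 and 2.095.

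Over 77 nuclear respiratory subunits the median was -0.69 in aged and -1.22 in young mice, and 72 of them had a higher fold change in aged mice, that is less negative or more positive, at a median difference of 0.596. That difference was 0.49 without contralateral replicates 3 and 6. Of these genes 35 had an unadjusted p under 0.05, and 11 were among the 22 genes that DESeq2 called. Ndufb11, a complex I subunit, fell by 0.47 in aged and 1.495 in young mice, a difference of 1.02 (SE 0.24, edgeR adjusted p = 0.272). Mitochondrially encoded genes had medians of -1.26 and -2.26, with 6 of 9 at an unadjusted p under 0.05. Of 20 macrophage markers 17 were at such a p, and 0 without contralateral replicates 3 and 6. Of the genes with the smallest p, Kbtbd13, a muscle ubiquitin ligase adaptor, had the higher fold change in aged mice (difference 1.54), and Cpne2 (-1.82) and the metal-binding gene Mt3 (-3.29) the lower. Fhad1 (4.13) and Gm14221 (-4.52) completed the 6, all with an adjusted p of 0.272. Young contralateral muscle carried liver transcripts, the 12 liver genes having a young median of -6.57, and the 5 erythroid genes tested, markers of red blood cells, had medians of -0.66 in aged and -1.77 in young mice. All 5 had a higher fold change in aged mice, at a median difference of 1.25 (1.23 without contralateral replicates 3 and 6), with 4 at an unadjusted p under 0.05. The part of liver and erythroid transcripts in these differences was not tested. In the aged vehicle response itself, Ndufb11 had an adjusted p of 0.0921 with the mouse as a block. Ndufb11 lost its call in 5 of the 9 fits that left out 1 library (adjusted p up to 0.181).

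**Figure D5:**
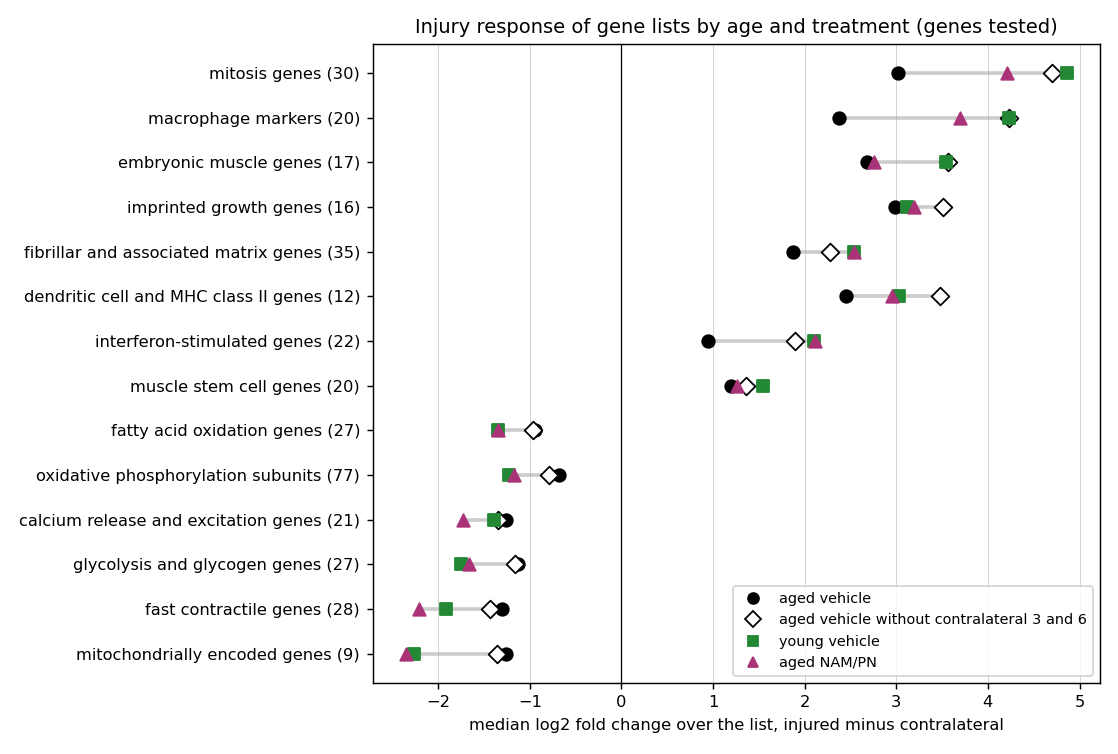
Median log2 fold change over each of 14 lists (injured minus contralateral, horizontal axis) in aged vehicle mice with all libraries (black circles) and without contralateral replicates 3 and 6 (open diamonds), in young vehicle mice (green squares) and in aged NAM/PN mice (purple triangles). Fast contractile genes read -1.305, -1.43, -1.92 and -2.21 in that order.

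Against aged mice that received NAM/PN, 0 genes (0%) differed in their response by edgeR, with 964 (7.64%) at an unadjusted p under 0.05, 40 by DESeq2 and 183 by voom with quality weights. Of the 40, 6 were fast contractile genes and 5 oxidative phosphorylation subunits, all less reduced in vehicle-treated mice, and of the 183, 14 and 12 were. Fast contractile genes had medians of -1.305 with vehicle and -2.21 with NAM/PN, with 17 of 28 at an unadjusted p under 0.05. Mitosis genes read 3.02 and 4.21, macrophage markers 2.37 and 3.70. Without contralateral replicates 3 and 6 the vehicle medians of these 2 lists were 4.696 and 4.23, above those of NAM/PN, so the direction of that difference turned, whereas the fast contractile median was -1.43. The 5 erythroid genes tested, markers of red blood cells, had medians of -0.66 and -2.17, with 5 of 5 at an unadjusted p under 0.05, and their part in the differences was not tested. Lrrc14b fell by 1.602 with vehicle and 2.89 with NAM/PN, the smallest p of this comparison (adjusted p = 0.32), and 6430571L13Rik (-1.18 and -3.27) and Asb18 (-0.86 and -2.87) went the same way. In the other direction, Ccl5, a chemokine of T cells, read 1.65 and 4.73, the helicase subunit Mcm3 1.18 and 2.37, and Arhgap11a 0.49 and 3.23. None of these 6 passed, and whether the treatment changed the response of any of them was not shown by the main test. In the aged vehicle response itself, Asb18 had an adjusted p of 0.13 with the mouse as a block. Arhgap11a had an adjusted p of 0.046 under that block, below the threshold. 6430571L13Rik lost its call without injured replicate 2 (adjusted p 0.0548) and Asb18 lost its call in 7 of the 9 fits that left out 1 library (adjusted p up to 0.287).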

How the data were processed

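The authors measured gene expression by QuantSeq 3′ mRNA sequencing, which reads the 3′ end of polyadenylated transcripts, mapped the reads onto GRCm38 using STAR, assigned them to genes with HTSeq (version 2.16.2 in the submitters' processing notes) and deposited raw counts of 27554 genes in 38 libraries. The annotation release and the strand setting are not given in the sources used here, so overlapping, antisense and near-identical genes are uncertain. Symbols came from GENCODE M21, which held 27441 of the identifiers, and the other 113 took 0.00214% of counts. In 46 lists of 1036 entries, 4 entries had no match.

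Groups and legs were taken from the sample titles and mice from the sample descriptions. Counts were tested with edgeR 4.0.16 in R 4.3.3 (filterByExpr, which left 12610 genes, TMM, and 1 quasi-likelihood fit of 8 groups over all 38 libraries), with Benjamini-Hochberg adjustment over all genes tested, a threshold of 0.05 and two-sided tests. Adjusted p-values without another tool named are from this fit. Fold changes are the fitted log2 estimates with standard errors, and CPM are TMM-scaled. Counts carry no molecular identifiers, so error was taken from the spread between mice. Single values per library were compared by exact permutation tests, which took the libraries as independent and ignored the legs shared by a mouse.

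The members, lists and tests were chosen with earlier results of these data known. The text names 40 panel genes, in either direction the 10 smallest p-values (absolute log2 fold change of at least 1, mean of at least 1 CPM, no overlap between groups), the 10 largest changes (at least 20 CPM in the higher group), up to 4 leading and 3 opposite members of a list, members that did not pass where they were 5 or fewer, and up to 3 genes per direction in each difference between responses. Genes outside this rule, chosen after their values were seen, were H19, Mef2d, the partners of named isoforms (Acta1, Tnni2, Casq1, Cox6a2, Cox8b, Hk2, Pfkm, Eno3) and those so described in the text. Some genes that the rule covers are not reported here.

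Same-mouse legs deviated from their group means with correlations of -0.07 to 0.28 across genes in the 3 aged vehicle mice, and the consensus correlation within mice was 0.0484. Since the same animal gave both legs, the mouse was used as a block in an alternative fit. No libraries were duplicates (lowest chi-square per degree of freedom 12.2 over 18 pairs). Alternatives were RLE size factors, other filters, blocks by mouse, limma 3.58.1 (voom), DESeq2 1.42.0, removal of mitochondrial genes, fits to fewer libraries and leaving out each library. Code was tested on simulated data for this comparison: of 195 tested genes changed by 1 on the log2 scale 36.4% were recovered, of 196 changed by 2 80.6%, with 3 and 6 unchanged genes called, and without change 0 genes. Promoter sequences are from RefSeq (GRCm38.p6).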

Additional observations from a re-analysis of the deposited data

Results flagged for a closer look

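Each summed list and each panel gene was checked for a library that stands apart within the 6 contralateral libraries, by the gap between an end value and its neighbour relative to the range of the group. Of 46 lists 9 and of 38 panel genes 8 were flagged, where about 1 in 20 would be flagged for independent, normally distributed values. CPM need not follow that distribution and lists share members, so this rate is only a rough guide. Contralateral replicate 3 accounted for 7 of the flags and replicate 6 for 8, and groups of 3 injured libraries were not tested.

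In contralateral replicate 3, Myh3 measured 248.8 CPM against 91.7 CPM in the next library, Mymk 64.2 against 16.02 CPM, Mymx 4.49 against 1.47 CPM, Chrng 46.4 against 9.64 CPM, Ncam1 267 against 86.8 CPM and Mki67 10.1 against 2.78 CPM. The summed level of neuromuscular junction and denervation genes was 729.7 CPM against 368 CPM. The next library was replicate 6 in each of the 6 genes.

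In contralateral replicate 6, Adgre1 measured 28.8 CPM against 4.49 CPM in the next library and S100a8 77.2 against 7.99 CPM. Summed levels stood apart for neutrophil markers (209 against 15.5 CPM), inflammatory macrophage genes (46.9 against 14.4 CPM), interferon-stimulated genes (882 against 375 CPM), lysosome genes (4405 against 3175 CPM) and liver genes (58.5 against 13.01 CPM), and TGF-beta family genes were low (666 against 774 CPM).

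Endothelial markers summed to 746 CPM in contralateral replicate 4 against 520.28 CPM in the next library, and Schwann cell markers to 357 CPM in contralateral replicate 5 against 161 CPM.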

How the results depend on the processing

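The count of 4836 called genes lay between 3592 and 5041 when 1 library was left out, and between 4045 and 5563 with RLE size factors, other filters, the mouse as a replicate block in edgeR (4045) or as a random term in voom (5219), voom with quality weights, DESeq2, removal of mitochondrial genes, or without contralateral replicates 3 and 6 (5120). It was 2875 with only the 9 libraries fitted and 2118 with the replicate block in only the 3 mice with both legs, fits that hold fewer samples. The difference from the young response was called in 22 genes by DESeq2 and that from the aged NAM/PN response in 40 by DESeq2 and 183 by voom with quality weights, and in 0 by every other alternative run. The share of mitochondrial counts differed by -8.77 to -4.02 percentage points, and the number of genes detected by 1174 to 1478, when 1 library was left out. The p of the mitochondrial share exceeded 0.05 without contralateral replicates 2 to 6 or any injured replicate, and that of genes detected without any injured replicate, where the smallest possible p is larger. Within the 3 mice the paired difference of the mitochondrial share was -7.03 percentage points.

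Of 224 log2 fold changes in the text that passed, 159 kept their direction and call in every alternative and 173 in every fit without 1 library. Saa3 reversed to 2.79 without contralateral replicates 3 and 6, 2.76 with the replicate block, 0.32 with the random term and 0.97 with quality weights, and lay between -6.796 and 3.098 when 1 library was left out. Lcn2 reversed to 0.76 without both replicates and 0.92 with the block, and lay between -3.04 and 0.42. The cause was not tested. Depth limits genes under about 1 CPM, where a contralateral library holds few counts, and injured muscle rests on 3 mice.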

Other observations

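Circadian clock genes were mostly lower in injured aged muscle, with 0 higher and 11 lower of 18, at a median of -0.94. Nr1d1, the clock repressor REV-ERB alpha, was measured at 43.01, 39.2 and 35.05 CPM after injury and at 57.7 to 206 CPM (median 139) in the contralateral leg and fell by 1.84 (SE 0.33, adjusted p = 4.81e-05). Rora, the activator that competes with it, fell by 1.73 (SE 0.34, adjusted p = 0.00013), and Hlf (-1.67) fell as well. Both legs of a mouse were collected at the same time point, and the hour of collection is not given in the sources used here. Ribosome biogenesis genes counted 1 higher and 4 lower of 24, with falls of Rrp12 (-1.13), Wdr12 (-0.803), the polymerase I factor Rrn3 (-0.76) and Mybbp1a (-0.54) and an increase of Nop58 (0.41), a share below the background. Wdr12 and Nop58 had adjusted p-values of 0.0526 and 0.208 with the mouse as a block. Wdr12 lost its call without injured replicates 1 and 3 (adjusted p up to 0.0575), Mybbp1a lost its call without injured replicate 2 (adjusted p 0.0637) and Nop58 lost its call in 5 of the 9 fits that left out 1 library (adjusted p up to 0.328).

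Wnt pathway genes counted 5 higher and 1 lower of 30, a share below the background. The secreted regulators Sfrp2 and Sfrp1 rose by 3.95 (SE 0.64, adjusted p = 1.6e-05) and 2.17 (SE 0.38, adjusted p = 4.58e-05) and the receptor Fzd2 by 2.204 (SE 0.505, adjusted p = 0.000825), each without overlap between the groups. Wnt4, a ligand that keeps muscle stem cells quiescent, measured 7.53, 6.501 and 10.7 CPM in injured replicates 1 to 3 and 12.97 to 63.4 CPM (median 35.1) in contralateral muscle and fell by 1.99 (SE 0.47, adjusted p = 0.00125).

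Of all 27554 genes in the table, 112 were counted in every injured library and in none of the 6 contralateral ones, and 1 gene showed the reverse. These numbers are not comparable, since the first asks for counts in 3 libraries and the reverse for counts in 6. TMM factors also differed, at 1.21 to 1.38 in injured and 0.716 to 0.967 in contralateral libraries, and the part of depth was not tested. The highest of the 112 genes, chosen after their values were seen, was Mroh2a with 18, 42 and 17 counts in injured replicates 1 to 3, followed by the DNA repair gene Fanca with 11, 9 and 17. Cd300c, a receptor of myeloid cells, had 5, 11 and 13 counts, Zwilch, a kinetochore protein, 6, 9 and 8, and Dcstamp, which macrophages use to fuse into giant cells, 4, 3 and 10. Gal, which encodes the neuropeptide galanin and is among the 10 largest increases, was at 0 CPM in contralateral replicates 1, 2, 4 and 5, at 8.53 CPM in replicate 3, at 0.981 CPM in replicate 6 and at 12.01, 22.2 and 42.6 CPM in the injured libraries.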
